A study of Mus musculus with 35 samples.

Results

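Hemoglobin and erythroid genes were followed through RNA sequencing of myeloid-derived suppressor cells (MDSC) and of whole pancreatic tumors. The 7 genes, out of 53379 gene identifiers in the count table, were the adult α-globin genes Hba-a1 and Hba-a2, the adult β-globin genes Hbb-bs and Hbb-bt, Alas2, Car1 and Klf1. They were found by matching each Ensembl identifier to its symbol. The set was selected on measured values of this series, the fold change of Hba-a1 between poly(I:C)c and untreated splenic M-MDSC among them, so that contrast is given as a description with no test.

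All mice were female C57BL/6 animals that carried an orthotopic pancreatic tumor grown from T110299, a cell line derived from a genetically engineered mouse model of pancreatic cancer. Mice labelled poly(I:C)c had received 50 µg of the double-stranded RNA poly(I:C), complexed with the carrier PEI, intravenously on days 18 and 20, and the others were labelled untreated (the general methods give a glucose injection for controls, while the account of the sequenced mice says they had no treatment). PMN-MDSC (CD11b+, Ly6C low, Ly6G+) and M-MDSC (CD11b+, Ly6C high, Ly6G-) were sorted from spleen and tumor, and bulk tumor of untreated mice was lysed without sorting. Spleen suspensions had passed a red blood cell lysis step, which the methods do not describe for tumors. The 34 libraries used made up 9 groups. There were 4 libraries per group except 3 in poly(I:C)c spleen PMN-MDSC and 3 in poly(I:C)c tumor M-MDSC, where the fourth library held 10 counts and was left out.

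Hemoglobin is a tetramer of α- and β-globin chains, each holding a heme, and red cell precursors make it in very large amounts before they lose their nucleus. Alas2 is the erythroid form of the first enzyme of heme synthesis, Car1 is a carbonic anhydrase of red cells, and Klf1 is the transcription factor that drives the adult β-globin gene. The mouse spleen is a site of red cell formation as well as of red cell clearance, and young red cells still carry globin RNA. Neither neutrophils nor monocytes are known to make hemoglobin in quantity.

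The 4 adult globin genes are near-identical pairs, and this bears on every value below. GENCODE M21 on GRCm38 places Hba-a1 at chr11:32283511-32284465 and Hba-a2 at chr11:32296489-32297298, both on the plus strand. It places Hbb-bs at chr7:103826534-103828096 and Hbb-bt at chr7:103812524-103813996, both on the minus strand. Over 429 coding bases Hba-a1 and Hba-a2 differed by 1 base, C381T, and over 444 coding bases Hbb-bs and Hbb-bt differed by 1 base, C417T, with positions counted from 1 at the first base of the start codon and the base of the first-named gene written first. The stretches that hold these differences are shown because they are the only coding sequence that can tell the partners apart, and the capital marks the base that differs.
Hba-a1, coding bases 336 to 425: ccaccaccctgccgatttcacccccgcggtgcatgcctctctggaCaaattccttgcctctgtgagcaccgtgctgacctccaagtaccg
Hba-a2, coding bases 336 to 425: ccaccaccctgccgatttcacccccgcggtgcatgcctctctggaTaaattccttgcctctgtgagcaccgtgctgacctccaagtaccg
Hbb-bs, coding bases 355 to 444: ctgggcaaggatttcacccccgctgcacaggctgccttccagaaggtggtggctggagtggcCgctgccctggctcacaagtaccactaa
Hbb-bt, coding bases 355 to 444: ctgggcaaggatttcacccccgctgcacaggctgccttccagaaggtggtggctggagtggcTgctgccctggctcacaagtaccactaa
The longest run shared by the partners was 380 coding bases for the α pair and 416 for the β pair. How reads that match both partners were assigned is not given in the sources used here, so the sums Hba-a1 + Hba-a2 and Hbb-bs + Hbb-bt are given beside each gene.

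Sequence upstream of 3 of the genes is shown next because erythroid genes share short binding motifs there. The motifs GATAA (of GATA factors) and CCACCC (of the KLF family) were searched on both strands of RefSeq promoter windows of 250 bases before to 50 bases after the start on GRCm38.p6, which were found for 6 of the 7 genes. GATAA was present in the windows of all 6 of these genes (Hba-a1, Hba-a2, Hbb-bs, Hbb-bt, Alas2, Klf1) and in 25.4% of 32851 windows of all genes. CCACCC was present in 5 of the 6, with Hbb-bs the exception, and in 31.5% of all windows. The sequences below run up to the annotated gene start, so that the 3 CCACCC matches of the Alas2 window, which lie past the start, are not among them, with matches (TTATC is GATAA on the other strand) in capitals.
Hba-a2, chr11:32296242-32296488, plus strand: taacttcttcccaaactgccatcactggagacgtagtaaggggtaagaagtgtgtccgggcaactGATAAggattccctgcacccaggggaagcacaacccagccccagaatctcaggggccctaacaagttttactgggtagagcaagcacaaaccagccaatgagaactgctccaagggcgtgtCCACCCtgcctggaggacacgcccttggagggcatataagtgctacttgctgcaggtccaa
Hbb-bt, chr7:103813997-103814173, minus strand: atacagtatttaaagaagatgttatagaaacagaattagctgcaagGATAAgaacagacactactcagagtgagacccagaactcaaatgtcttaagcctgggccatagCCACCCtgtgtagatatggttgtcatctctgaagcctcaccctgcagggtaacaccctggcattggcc
Alas2, chrX:150547167-150547374, plus strand: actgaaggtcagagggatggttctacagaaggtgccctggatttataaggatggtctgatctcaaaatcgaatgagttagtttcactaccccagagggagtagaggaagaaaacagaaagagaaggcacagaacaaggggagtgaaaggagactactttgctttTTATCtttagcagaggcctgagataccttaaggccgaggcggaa
The windows of Hba-a1 and Hba-a2 shared a run of 297 of 300 bases. A match is a string of letters and was not examined as a bound site.

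Sorted libraries held 793070 to 4357105 counts (median 2459368.5) and bulk tumor libraries 3771590 to 8886115, so 3 counts, taken here as the floor, stand for 0.689 to 3.78 CPM (a gene's counts scaled by its library's total) in sorted libraries. In spleen the 10 neutrophil markers summed to 22674 to 41100 CPM in untreated PMN-MDSC and 4097 to 10326 CPM in untreated M-MDSC, and the 10 monocyte markers to 784 to 2325 and 6679 to 9666 CPM. Untreated tumor PMN-MDSC held 1069 to 4521 CPM of the neutrophil and 4772 to 9212 CPM of the monocyte markers, so these libraries went against their label on these lists, although none of the markers was at 0. The neutrophil sum was also above the monocyte sum in untreated spleen M-MDSC libraries 3 (10326 and 6679 CPM) and 4 (9258 and 6928 CPM) and in poly(I:C)c spleen M-MDSC libraries 1 (6251 and 4741 CPM) and 4 (5567 and 3497 CPM). The poly(I:C)c spleen M-MDSC library 4 stood apart in 8 B cell markers (13863 CPM, against 137 to 409 CPM in libraries 1 to 3). Sample titles use the same numbers across tissues and cell types, 8 in all and 4 per treatment arm, which are read here as mice. Columns were tied to groups and not to mice, with libraries numbered in column order. The p-values therefore measure the spread between these libraries and ignore that groups within an arm share mice.

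Globin RNA was present at a low level in untreated spleen cells of either sort and in bulk tumor, and at 0 to 27 counts per library elsewhere. The 4 adult globin genes together gave 97.4 ± 45.3 CPM (SD, n = 4) in untreated spleen PMN-MDSC and 42.6 ± 13.9 CPM (n = 4) in untreated spleen M-MDSC. Bulk tumor followed with 23.4 ± 16.2 CPM (n = 4), untreated tumor PMN-MDSC with 5.98 ± 6.92 CPM (n = 4) and untreated tumor M-MDSC with 5.45 ± 8.55 CPM (n = 4). In each step of this order the library ranges of neighbouring groups overlapped. Library 2 was the highest in bulk tumor, tumor PMN-MDSC and tumor M-MDSC alike, and whether these came from the same mouse was not tested. The poly(I:C)c groups came last, with 2.38 ± 3.49 CPM (n = 3) in spleen PMN-MDSC, 1.5 ± 1.55 CPM (n = 4) in spleen M-MDSC, 0.546 ± 0.329 CPM (n = 4) in tumor PMN-MDSC and no globin count in the 3 libraries of tumor M-MDSC, which allows up to 0.318 CPM over that group. Floors and intervals cover counting error only. Fewer cells that carry globin RNA and less globin RNA per cell cannot be told apart in such samples.

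**Figure D1:**
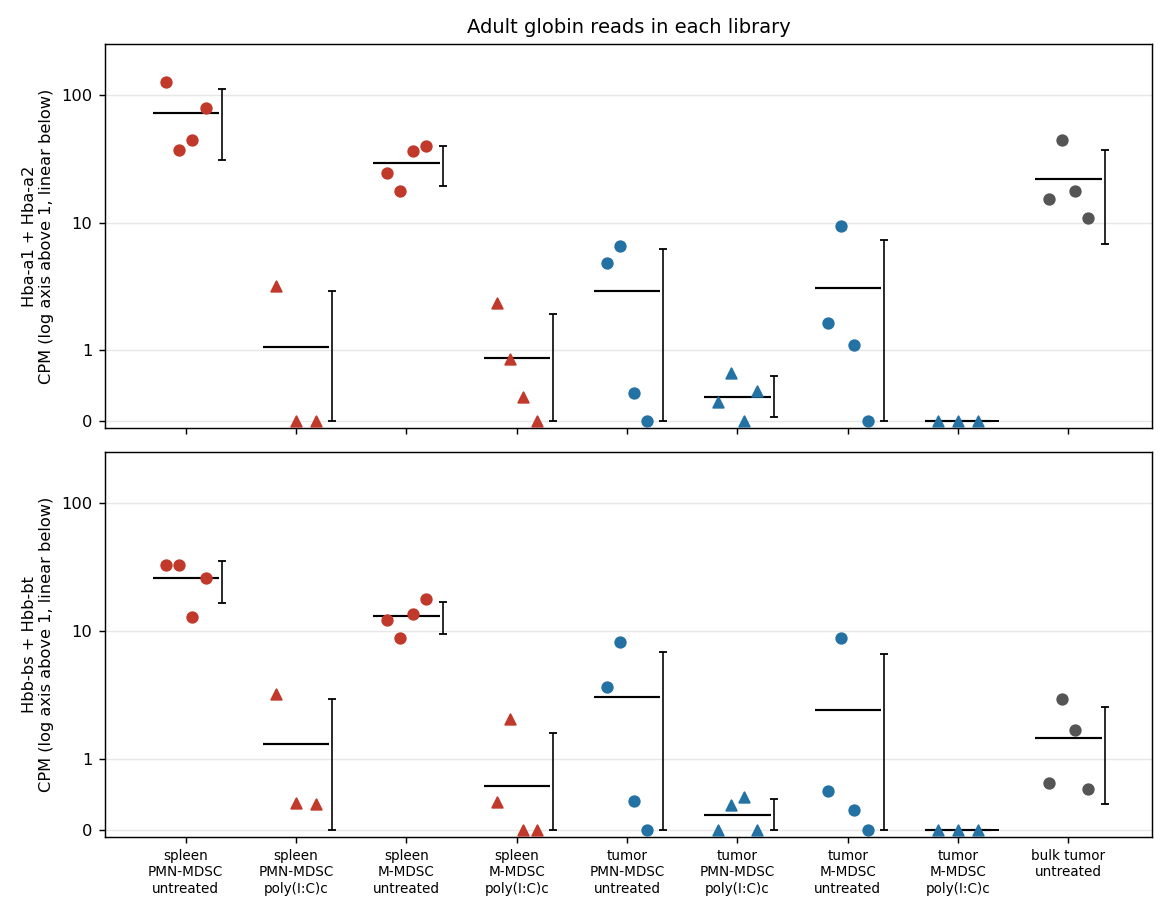
CPM of the α-globin pair (upper panel) and the β-globin pair (lower panel) in each of 34 libraries (axis logarithmic above 1 and linear below), with circles for untreated, triangles for poly(I:C)c, a line at the group mean and a bar of 1 SD either way, ended at 0. All 8 untreated spleen libraries lie above all 7 poly(I:C)c spleen libraries in both panels, and bulk tumor is near the spleen in α-globin only.

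α-Globin made up most of this signal in untreated spleen cells and in bulk tumor. Hba-a1, at 71.1 ± 40.6 CPM, was the highest of the 7 genes in untreated spleen PMN-MDSC, with 125, 36.4, 44.0 and 78.7 CPM in libraries 1 to 4. In untreated spleen M-MDSC it was at 23.7, 17.7, 36.4 and 39.8 CPM. PMN-MDSC libraries 1, 3 and 4 lay above every M-MDSC library, while library 2 fell within the M-MDSC range. In bulk tumor Hba-a1 was at 15.3, 44.3, 17.6 and 10.8 CPM, a spread in which library 2 was far above the rest.

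Hba-a2, which encodes the same α chain, was nearly empty in those 12 libraries. It held 0, 1, 0 and 2 counts in untreated spleen PMN-MDSC, 1, 0, 0 and 0 in untreated spleen M-MDSC, and 0 in all 4 bulk tumor libraries. Hba-a1 therefore took 97.8% to 100% of the α-globin reads of each of these libraries. In sorted tumor cells and after treatment, where α-globin reads were few, Hba-a2 was instead the partner with counts in several libraries: 8 counts against 0 for Hba-a1 in untreated tumor PMN-MDSC library 1, 6 against 0 in poly(I:C)c spleen M-MDSC library 1, and 5 against 0 in poly(I:C)c spleen PMN-MDSC library 1.

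The β pair was divided less sharply and also changed partner between libraries. Hbb-bt was at 30.8, 27.9, 7.45 and 20.9 CPM in untreated spleen PMN-MDSC, and Hbb-bs at 1.86, 4.98, 5.42 and 4.82 CPM. In untreated spleen M-MDSC, Hbb-bt was at 10.5, 6.97, 13.7 and 0.238 CPM and Hbb-bs at 1.58, 1.86, 0 and 17.6 CPM. Library 4 of the M-MDSC was thus the reverse of the other three, with 74 Hbb-bs counts and 1 Hbb-bt count. The share of β-globin reads given to Hbb-bt ran from 57.9% to 94.3% in the PMN-MDSC libraries and was 1.33% (95% exact Clopper-Pearson interval 0.0338% to 7.21%) in M-MDSC library 4. When the partners were summed this library no longer stood out, with 17.9 CPM against 8.83 to 13.7 CPM in its group.

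**Figure D2:**
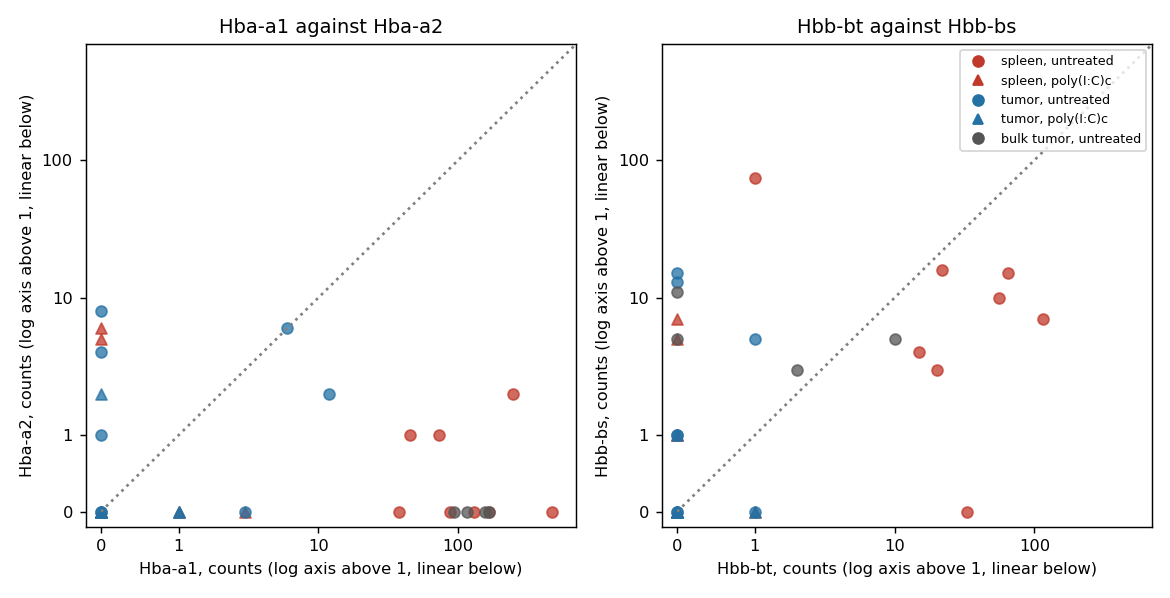
Counts of one globin partner against the other in each library (axes logarithmic above 1 and linear below, dotted line at equal counts), for the α pair (left) and the β pair (right). Most libraries with over 10 α-globin counts lie along the Hba-a1 axis, and 1 untreated spleen library lies far above the line for Hbb-bs with 74 counts against 1.

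The balance of α and β reads differed between bulk tumor and spleen. α-Globin was 95.9%, 93.8%, 91.2% and 94.9% of adult globin reads in the 4 bulk tumor libraries, each from 99 to 178 reads. It was 79.4%, 52.9%, 77.4% and 75.5% in untreated spleen PMN-MDSC and 66.7%, 66.7%, 72.7% and 69.0% in untreated spleen M-MDSC. The 4 bulk tumor libraries lay above all 8 spleen libraries, and their exact intervals (lowest bound 85.9%) did not reach the highest spleen interval (upper bound 83.5%). Per gene, bulk tumor held 21.98 ± 15.13 CPM of Hba-a1 but 1.12 ± 1.204 CPM of Hbb-bs and 0.339 ± 0.536 CPM of Hbb-bt, with Hbb-bt at 0 in 2 of the 4 libraries. This comparison was noticed in the values and has no test.

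**Figure D3:**
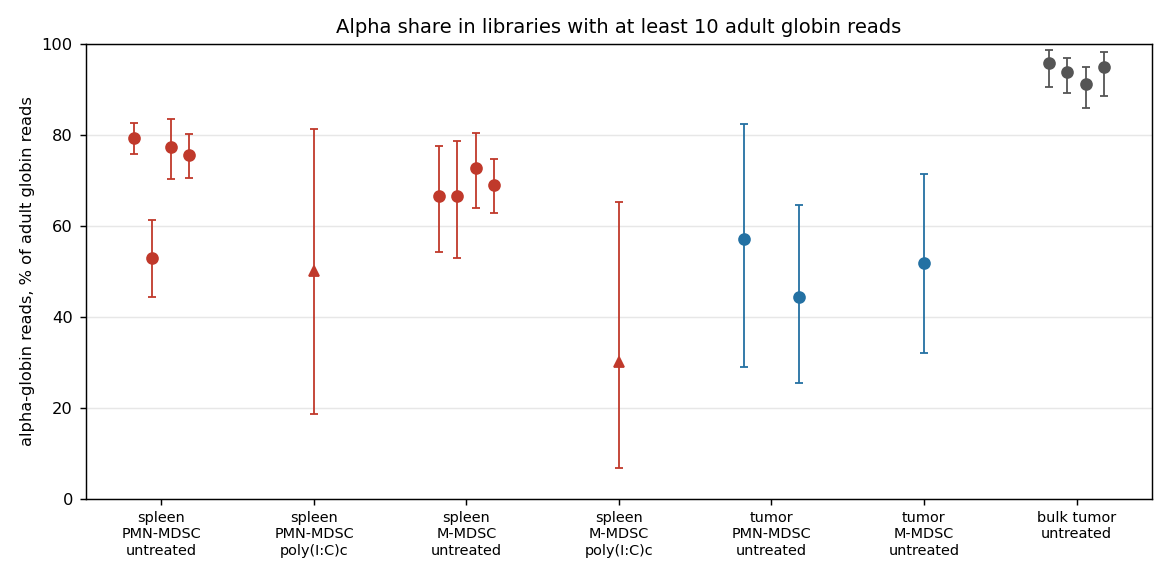
Share of adult globin reads that were α-globin, in percent, for each library with at least 10 such reads, with bars of the 95% exact binomial interval. The 4 bulk tumor libraries sit at 91.2% to 95.9%, above the 8 untreated spleen libraries at 52.9% to 79.4%, and the tumor-derived sorted libraries have wide intervals from 14 to 27 reads, as do 2 poly(I:C)c spleen libraries with 10 reads each.

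Alas2 was detected in the same groups at a lower level. In untreated spleen PMN-MDSC it was at 14.3, 4.98, 1.69 and 8.35 CPM, and in untreated spleen M-MDSC at 2.64, 1.39, 4.14 and 2.62 CPM. The order of the libraries was that of globin at both ends in the PMN-MDSC but not in the M-MDSC, where library 4 had the most globin and library 3 the most Alas2. Bulk tumor held 0.675 to 1.33 CPM. Every other group had at most 4 counts in any library, and the 4 counts were in the poly(I:C)c spleen M-MDSC library 4, which had no globin count.

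Klf1 and Car1 were at the limit of the depth. Klf1 had 10, 0, 1 and 1 counts in untreated spleen PMN-MDSC, so 10 of its 12 counts there came from library 1, the library with the most globin. In the other 30 libraries it had at most 3 counts. Car1 had at most 1 count in any of the 34 libraries and 5 counts in all, and was not detectable as different between groups at this depth.

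Compared per length, which allows one gene to be set against another, the order in untreated spleen PMN-MDSC was Hba-a1 with 87.6 CPM per kilobase of exon, Hbb-bt with 30.9, Hbb-bs with 5.56 and Alas2 with 3.05. Klf1 at 0.541, Hba-a2 at 0.427 and Car1 at 0.232 CPM per kilobase closed the order. Over the 4 libraries Hba-a1 ran from 44.8 to 154.5 and Hbb-bt from 10.6 to 43.8 CPM per kilobase, so the top pair did not overlap. The place of each partner within a pair may depend on how shared reads were assigned, which was not tested.

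**Figure D4:**
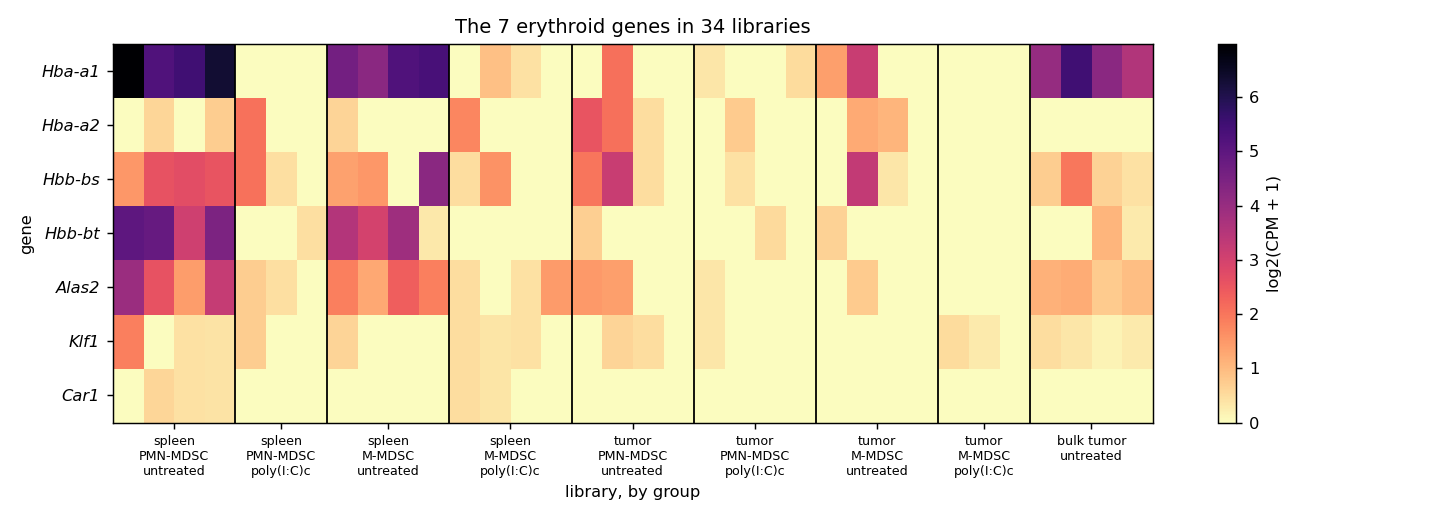
Level of the 7 genes (rows) in 34 libraries (columns, in groups parted by lines) as log2(CPM + 1). Hba-a1 is dark in all 8 untreated spleen libraries and Hbb-bt in 7 of them, only the Hba-a1 row is dark in bulk tumor, and the Klf1 and Car1 rows are pale throughout.

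The study asked how poly(I:C)c changed MDSC. In spleen PMN-MDSC, globin and Alas2 reads were almost gone after treatment. Hba-a1 went from 36.4 to 125 CPM in the 4 untreated libraries to no count in the 3 poly(I:C)c libraries, over the summed libraries at least 182-fold lower at a floor of 3 counts. The α pair went from 924 counts in all to 5, and the β pair from 307 to 7. Alas2 went from 95 counts in all to 2, with 1.69 to 14.3 CPM before and 0 to 0.640 CPM after. For each of these 4 quantities the untreated and treated libraries did not overlap.

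Calls were made with edgeR's quasi-likelihood test on genes that averaged 25 counts or more, for a Benjamini-Hochberg adjusted p under 0.001 and a fold of 2 or more. Here, 2 of the 7 genes could be tested and neither was called, where 0.0413% of 7261 genes were. The log2 fold change (log2FC) of Hba-a1 was -10.48 with an adjusted p of 0.00368, and that of Hbb-bt -6.62 with an adjusted p of 0.00500. Both had an unadjusted p under 0.05, both passed an adjusted p of 0.05, which 11.6% of the tested genes did, and DESeq2 called both (adjusted p 1.54e-11 for Hba-a1 and 6.09e-06 for Hbb-bt) among 517 of the 7261 genes. The genes reached the minimum only through the untreated libraries, so their being tested already required a difference. Without the filter on low counts edgeR called Hba-a1, Hbb-bt and Alas2 (log2FC of Alas2 -4.16 ± 0.87 SE, adjusted p 8.39e-05) and none of the others, among 789 calls in 27640 genes. Without poly(I:C)c library 3, which held the only Hbb-bt count of its group, the filtered log2FC of Hbb-bt was -8.80.

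Other cells differed between these groups as well. The summed level of 15 red pulp and erythrophagocytic macrophage markers, genes of the cells that take up old red cells, was 1201 to 2435 CPM in the untreated and 531 to 755 CPM in the poly(I:C)c libraries, with no marker at 0. The complement genes C1qb, C1qc and C1qa led this list over all sorted libraries. Of 14 of them tested, 10 were lower at an adjusted p under 0.05 and none was called. The untreated library with the most of these markers, library 1 with 2435 CPM, was also the one with the most globin, Alas2 and Klf1. The 8 B cell markers summed to 136 to 218 CPM before and 71.1 to 123 CPM after, and none of 3 tested passed an adjusted p of 0.05. Among markers of other cells, T and NK cell genes summed to 12.9 to 17.3 CPM before and 2.88 to 4.83 CPM after, endothelial genes to 28.8 to 76.7 and 10.8 to 15.6 CPM, epithelial genes to 17.6 to 34.9 and 3.96 to 9.28 CPM, acinar genes to 1.36 to 3.98 and 0 to 0.72 CPM, and fibroblast genes to 2.37 to 11.1 and 1.11 to 25.6 CPM. Each of these lists has 8 genes, and several were at 0. There were 3 endothelial and 3 epithelial genes at 0 in either group, Krt8, Krt19 and Msln among the untreated. Of the acinar genes 4 were at 0 before and 7 after, and of the fibroblast genes 1 and 4. Cd8a was at 0 after treatment. The part of these cells in the globin result was not tested.

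In spleen M-MDSC, the contrast through which Hba-a1 was known, the values are a description. Hba-a1 went from 17.7 to 39.8 CPM in the untreated libraries to 0, 0.873, 0.338 and 0 CPM in the poly(I:C)c libraries (log2FC -6.14 ± 0.56 SE, n = 4 and 4), and 2.47% of 8827 genes were called there. The β pair went from 12.1, 8.83, 13.7 and 17.9 CPM to 0.394, 2.04, 0 and 0 CPM. Alas2 went from 1.39 to 4.14 CPM to 0 to 1.77 CPM, so that 1 treated library, number 4, reached into the untreated range. Without that library, which carries the B cell markers, the log2FC of Hba-a1 was -5.82, and without treated library 2, which held 3 of the 4 Hba-a1 counts, it was -7.36. Here the sum of the red pulp macrophage markers, a list led by complement genes, was higher after treatment, at 902 to 1336 CPM against 642 to 850 CPM. None of the markers was at 0, and the direction was the other one from the PMN-MDSC. Itgad, an integrin subunit of splenic macrophages, was instead lower, at a mean of 1.52 CPM after and 5.88 CPM before, though it was picked for its likeness to globin. Monocyte markers were at 3497 to 4984 CPM after treatment against 6679 to 9666 CPM before, and endothelial markers at 133 to 299 CPM against 30.2 to 40.1 CPM, with 2 of the 8 at 0 in either group. Neutrophil markers were at 1044 to 6251 CPM after and 4097 to 10326 CPM before, which overlapped. The part of these cells in the globin values was not tested.

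In tumor MDSC there was little globin RNA to lose. The summed globin genes were at 8.49, 14.6, 0.799 and 0 CPM in untreated and at 0.274, 1.02, 0.456 and 0.431 CPM in poly(I:C)c tumor PMN-MDSC, and the ranges overlapped. In untreated tumor M-MDSC they were at 2.20, 18.2, 1.39 and 0 CPM, with 27 of the 36 counts in library 2, against no count in the treated libraries. None of the 7 genes reached the minimum for a test in either comparison, where 0.241% of 8308 and 0.012% of 8360 genes were called. Without the filter edgeR and the same call rule gave no call among 6 genes with counts in either, and the smallest adjusted p values were 0.0152 for Hbb-bs in PMN-MDSC and 0.0112 for Hba-a1 in M-MDSC.

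Untreated tumor PMN-MDSC had much less globin RNA than untreated spleen PMN-MDSC. The α pair was at 4.85, 6.50, 0.4 and 0 CPM in tumor against 36.9 to 125 CPM in spleen, and the β pair at 3.64, 8.13, 0.4 and 0 CPM against 12.9 to 32.9 CPM. Neither pair overlapped between the tissues. Hba-a1 and Hbb-bt reached the minimum of 25 counts only through the spleen libraries, so being tested already required a difference, and their calls are given as values only. Both were called lower in tumor, Hba-a1 with a log2FC of -6.58 ± 0.75 SE (edgeR, adjusted p 5.29e-05) and Hbb-bt with -7.09 ± 0.83 SE (edgeR, adjusted p 6.20e-05), beside 21.7% of 7971 genes called. The size depended on the partner that took the reads: with partners summed the log2FC was -4.81 for α-globin (edgeR, adjusted p 0.000204, called) and -3.31 for β-globin (edgeR, adjusted p 0.00280, not called). Alas2 was at 1.82, 1.63, 0 and 0 CPM in tumor, and without the filter its log2FC was -3.40 ± 0.64 SE. This comparison uses the same untreated spleen libraries as the treatment comparison. Without spleen library 1, Hbb-bt no longer reached 25 counts and 1 gene was called. Without tumor library 2, which held every Hba-a1 count of its group, the log2FC of Hba-a1 was -10.55, and without tumor library 1, which held the only Hbb-bt count, that of Hbb-bt was -8.89. Red pulp macrophage markers, a list led by complement genes, were at 3014 to 3703 CPM in tumor against 1201 to 2435 CPM in spleen. Itgad, a splenic macrophage gene picked for its likeness to globin, went the other way, at a mean of 2.46 CPM in tumor and 38.7 CPM in spleen. Neutrophil markers were at 1069 to 4521 CPM in tumor against 22674 to 41100 CPM in spleen, and monocyte markers at 4772 to 9212 against 784 to 2325 CPM. The tumor libraries thus went against their label, and the part of these cells in the result was not tested.

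The same contrast in M-MDSC had the same direction with fewer reads. Hba-a1 was at 1.65, 8.09, 0 and 0 CPM in tumor against 17.7 to 39.8 CPM in spleen, with no overlap. It reached the minimum only through the spleen libraries, which were also among those the set was selected on, so its p is no independent support. Its log2FC was -3.54 ± 0.73 SE with an adjusted p of 0.00403 (edgeR), so the only gene tested was not called, where 8.6% of 8298 genes were, and it passed an adjusted p of 0.05, which 28.4% did. Without tumor library 2, which held 27 of the group's 36 globin counts, the log2FC was -5.54 and the adjusted p 0.000259, which is a call, and without tumor library 3 the log2FC was -2.75. Monocyte markers were at 9589 to 13005 CPM in tumor and 6679 to 9666 CPM in spleen, neutrophil markers at 247 to 788 CPM in tumor and 4097 to 10326 CPM in spleen, and red pulp macrophage markers at 1009 to 1978 CPM in tumor, with 1 of the 15 at 0, and 642 to 850 CPM in spleen. The part of these cells in the result was not tested.

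Within untreated spleen, PMN-MDSC had a higher mean of globin RNA than M-MDSC. The summed globin genes were at 56.9 to 158 CPM in PMN-MDSC and 26.5 to 57.6 CPM in M-MDSC, which overlapped slightly. The M-MDSC libraries were among those the set was selected on, and Hbb-bt reached the minimum only through the PMN-MDSC, so the tests are given as values only. Hba-a1 was higher by a log2FC of 1.63 ± 0.38 SE (edgeR, adjusted p 0.00427) and Hbb-bt by 1.92 ± 0.72 SE (edgeR, adjusted p 0.0385). Neither of these 2 genes was called, against 23.2% of 8579 genes, though both had an unadjusted p under 0.05 and passed an adjusted p of 0.05, as did 64.4% of all genes. Over summed libraries Hbb-bt was 3.38-fold higher in PMN-MDSC and Hbb-bs 1.87-fold higher in M-MDSC, and the β pair was 1.84-fold higher in PMN-MDSC (95% exact counting interval 1.51 to 2.26). The Hbb-bs direction rests on M-MDSC library 4, which held 74 of the 81 counts. The other M-MDSC libraries were at 1.86 CPM of Hbb-bs or below, against 1.86 to 5.42 CPM in PMN-MDSC. Red pulp macrophage markers were also higher in PMN-MDSC, at 1201 to 2435 CPM against 642 to 850 CPM. So were platelet and megakaryocyte (17.9 to 23.6 against 2.11 to 4.97 CPM), T and NK cell (12.9 to 17.3 against 4.64 to 8.28 CPM), epithelial (17.6 to 34.9 against 6.86 to 14.9 CPM) and acinar markers. B cell, endothelial and fibroblast ranges overlapped, and monocyte markers were lower. The part of these cells in the result was not tested.

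Between untreated tumor PMN-MDSC and M-MDSC no difference was detectable at this depth. The groups had 43 and 36 globin counts in all, a ratio of summed rates of 1.13 (95% exact counting interval 0.712 to 1.82), and none of the 7 genes could be tested, where 1.65% of 7623 genes were called.

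Bulk tumor had more α-globin than the MDSC sorted from tumors. Its lowest library, at 10.8 CPM of the α pair, was above the highest of 6.50 CPM in tumor PMN-MDSC and of 9.44 CPM in tumor M-MDSC. Hba-a1 was the only gene tested, reached the minimum only through the bulk tumor libraries, and was not called in either comparison. Its log2FC was 4.51 ± 0.92 SE against PMN-MDSC (edgeR, adjusted p 0.00144), where 40.1% of 11138 genes were called, and 3.11 ± 0.89 SE against M-MDSC (edgeR, adjusted p 0.00894), where 41.9% of 11022 genes were. It had an unadjusted p under 0.05 in both, and passed an adjusted p of 0.05 in both, as did 69.5% and 69.2% of the genes. The median log2FC of all genes tested against M-MDSC was 0.17. Without tumor PMN-MDSC library 2 the first log2FC was 9.73 and not called, without tumor M-MDSC library 2 the second was 5.18 and called (edgeR, adjusted p 0.000883), and without tumor M-MDSC library 3 it was 2.47. The β pair did not follow, with 0.572 to 2.92 CPM in bulk tumor against 0 to 8.13 CPM in tumor PMN-MDSC and 0 to 8.76 CPM in tumor M-MDSC. DESeq2 also called neither, and without the filter Hba-a2 was lower in bulk tumor than in PMN-MDSC (log2FC -6.25), opposite to its partner, so a direction for α-globin can be read only from the sum (log2FC 2.69, adjusted p 0.0141 in edgeR).

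Across the 30 sorted libraries the gene whose log2(CPM + 1) was most like that of the summed globin genes, of 12475 with a mean of at least 5 counts, was Slc4a1 (Pearson r 0.899), the band 3 anion exchanger of the red cell membrane. It was at 29.4, 7.97, 7.79 and 14.1 CPM in untreated spleen PMN-MDSC and at 6.86, 1.39, 1.66 and 8.33 CPM in untreated spleen M-MDSC, and had no count in the 7 poly(I:C)c spleen libraries. Itgad (0.889), an integrin subunit of splenic macrophages, Paqr9 (0.870), Adam23 (0.836) and Ncam1 (0.830), a neural cell adhesion molecule, came next. Tspan13, Myadm, Arrb1, Tcf20 and BX649560.1 completed the 10, at r from 0.798 to 0.813. Among the 7 genes themselves Alas2 (r 0.878) was closest to the sum it does not belong to, and Klf1 (0.374) and Car1 (0.393) were far from it. The libraries of a group share tissue and treatment, so these values describe a pattern over 8 groups and carry no test.

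**Figure D5:**
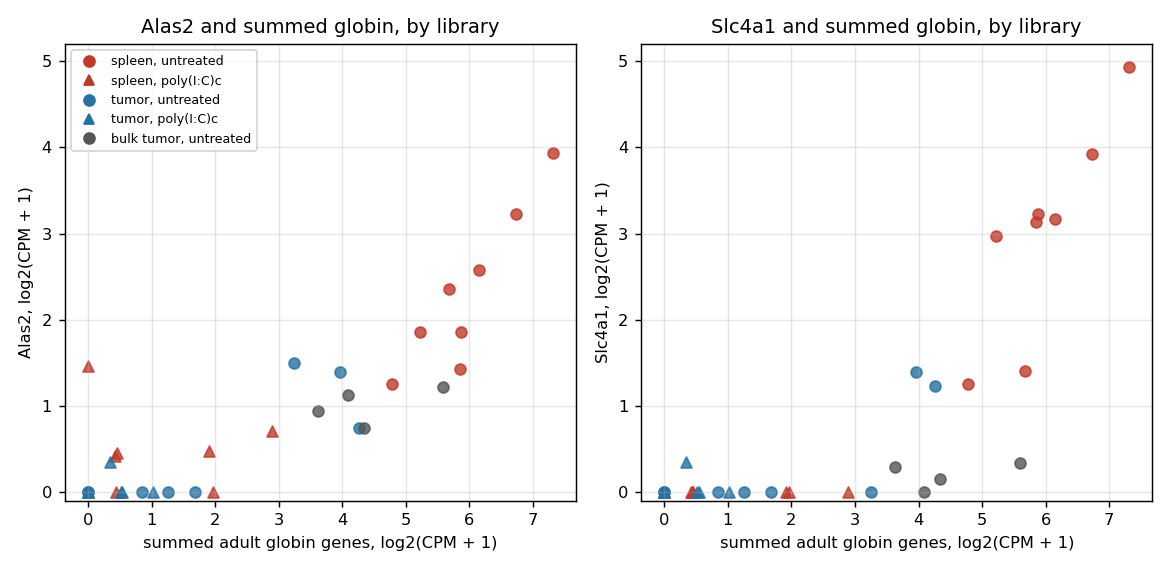
log2(CPM + 1) of Alas2 (left) and Slc4a1 (right) against that of the 4 summed adult globin genes, 1 point per library, colored by tissue and shaped by treatment. Untreated spleen libraries run up to the top right, while bulk tumor libraries with 11.3 to 47.2 CPM of globin have almost no Slc4a1 (0 to 0.265 CPM).

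Further erythroid genes had lower means after treatment in spleen. Of 29 further erythroid genes, membrane, skeleton and transport genes for the most part, 26 had over 3 counts in spleen PMN-MDSC and all 26 had a lower mean after treatment, beside 73.4% of 18054 genes with such counts. In spleen M-MDSC the numbers were 19 of 21, beside 55.8% of 18372 genes. The highest of the list by the mean over all sorted libraries were Epb41, a skeleton protein that many cell types make, at 153 CPM untreated and 103 CPM treated in spleen PMN-MDSC, Tmcc2 at 21.9 and 0 CPM, and Bpgm, which makes the red cell metabolite 2,3-bisphosphoglycerate, at 5.18 and 1.398 CPM. Only 3 of the 29 reached 25 counts there, none was called, and 2 passed an adjusted p of 0.05. Chosen after its values were seen, the membrane skeleton gene Ank1 was at 8.10 CPM untreated and 0.551 CPM treated.

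In tumor, 13 of 23 erythroid genes had a lower mean after poly(I:C)c in PMN-MDSC (51.9% of all genes) and 7 of 16 in M-MDSC (39.0% of all genes). In bulk tumor the summed list, at 309 to 351 CPM, was higher than in any sorted group except for 1 untreated spleen PMN-MDSC library at 341 CPM, while Slc4a1 was at most 0.265 CPM. Rhag, Cldn13 and Slc38a5 were at 0 in bulk tumor. The list holds genes that many cell types make, such as Epb41, so this sum is not read as red cell content. Of the erythroid genes with over 3 counts, 13 of 24 had a lower mean in bulk tumor than in tumor PMN-MDSC (44.6% of all genes) and 10 of 21 than in tumor M-MDSC (37.8% of all genes).

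The embryonic and θ-like globin genes of both loci were silent or nearly so. Of 7 measured, the summed level was at most 0.743 CPM in any library, with Hbb-bh0, Hbq1b and Hbb-bh1 the highest.

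Genes of heme synthesis other than Alas2 and of iron import had counts in all groups, except for Alad and Steap3 at 0 in poly(I:C)c spleen PMN-MDSC. The 8 other heme synthesis enzymes summed to 236 to 330 CPM in untreated and 284 to 409 CPM in poly(I:C)c spleen PMN-MDSC, most of it Alas1, the form of the first enzyme that all tissues use, at 169 and 297 CPM. Ppox at 41.1 and 28.3 CPM and Fech, which inserts the iron, at 16.6 and 4.88 CPM came next. None of the 4 tested was called, and 1 was higher and 1 lower at an adjusted p under 0.05. The 10 heme and iron import genes, with Flvcr1, Tmem14c and Slc25a37 the highest, summed to 192 to 240 CPM before and 154 to 190 CPM after, with none of 5 called. In spleen M-MDSC they summed to 273 to 294 CPM before and 204 to 268 CPM after, with none of 8 called.

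Of the 12 transcription factors that act in red cells, the highest were also those that other blood cells use. Nfe2 was at 269 and 387 CPM in untreated and poly(I:C)c spleen PMN-MDSC, Cbfa2t3 at 70.8 and 3.17 CPM and Lmo2 at 38.5 and 46.1 CPM. Of 7 tested in that comparison none was called, and 2 were lower at an adjusted p under 0.05. The 12 genes summed to 460 to 567 CPM before and 455 to 542 CPM after in spleen PMN-MDSC, with Sox6 at 0 after treatment, and to 738 to 853 and 337 to 450 CPM in spleen M-MDSC, where the groups did not overlap. Gata1, the main erythroid factor, had 1.08 CPM in untreated and 0.333 CPM in treated spleen PMN-MDSC, chosen here after its values were seen. The 11 platelet and megakaryocyte markers, of the lineage nearest to red cells, summed to 17.9 to 23.6 CPM in untreated and 5.76 to 19.7 CPM in poly(I:C)c spleen PMN-MDSC, with 3 at 0 after treatment. Among untreated groups the sum was highest in tumor PMN-MDSC, at 48.8 to 75.4 CPM. There Pf4 made up most of it, and 2 of the 11, Gp9 and Gp1bb, were at 0, so the sum is not read as a platelet level.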

How the data were processed

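Unnormalized gene counts were what the authors deposited. According to the methods they mapped reads with ContextMap and BWA to GRCm38 and counted by strand with featureCounts (Subread 1.4.6-p3 in the submitters' processing notes) on Gencode v16. Libraries were made from rRNA-depleted total RNA with a stranded low-input kit.

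Here the counts were scaled to CPM by each library's total. Symbols and lengths came from GENCODE M21 (53274 of 53379 identifiers matched). Groups were compared with edgeR 4.0.16 (R 4.3.3; robust quasi-likelihood, TMM, genes with a mean of 25 counts, only the libraries compared), with DESeq2 1.42.0 as alternative, and the procedure was tested on simulated data. Each pair of libraries of a group differed by more than sampling noise. A library of 10 counts was left out. The 7 genes, the 15 gene lists and the tests were chosen with earlier results of these data known. All 7 genes were named, with the 10 genes most like the summed globin and, where a list bore on a result, its 3 genes with the highest mean CPM over sorted libraries. Some items are not reported here.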

Additional observations from a re-analysis of the deposited data

Results flagged for a closer look

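In groups of 4 libraries, a value counted as standing apart when its gap to the next exceeded 0.83 of the group's range (Dixon's 95% limit). That limit is meant for normally spread values, and with sparse counts ties at 0 can fix the outcome. Such a value occurred 8 times in 28 sets of 4 libraries with over 3 counts. The sets also overlap, as the summed globin genes hold the single ones, so this number is not set against chance. For Hbb-bs the highest library stood apart in untreated spleen M-MDSC (17.6 CPM, the others at 1.86 CPM or below), in untreated tumor M-MDSC (8.76 CPM, the others at 0.277 CPM or below) and in bulk tumor (2.92 CPM, the others at 0.661 CPM or below), and the lowest library in untreated spleen PMN-MDSC (1.86 CPM, the others at 4.82 CPM or above). Single libraries held every count of Hba-a1 in untreated tumor PMN-MDSC (3.25 CPM) and of Hba-a2 in poly(I:C)c spleen M-MDSC (2.37 CPM). Klf1 was at 2.65 CPM in 1 untreated spleen PMN-MDSC library, the others at 0.339 CPM or below. The summed globin genes were at 18.2 CPM in untreated tumor M-MDSC library 2, the others at 2.20 CPM or below. No cause was tested.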

How the results depend on the processing

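No log2FC of a globin gene tested with the filter changed sign under an alternative. Of the 7 genes, an adjusted p of 0.05 with no minimum fold called 2 in the treatment of spleen PMN-MDSC, 1 in tumor against spleen M-MDSC, 2 in spleen PMN-MDSC against M-MDSC and 1 in bulk tumor against either tumor MDSC. DESeq2 called 2 in the treatment of spleen PMN-MDSC (of 517 calls in 7261 genes) and 1 in spleen PMN-MDSC against M-MDSC (of 2935 in 8579). Without the filter edgeR called 3 in the treatment of spleen PMN-MDSC (of 789 calls in 27640 genes), 2 in tumor against spleen M-MDSC (of 1483 in 24414), 2 in spleen PMN-MDSC against M-MDSC (of 3905 in 28696), 2 in bulk tumor against tumor PMN-MDSC (of 6985 in 32174) and 3 in tumor against spleen PMN-MDSC (of 3594 in 30908), with a median log2FC of all genes of -0.54 in the first. Summing partners, chosen after seeing the data, left 1 call in tumor against spleen PMN-MDSC. Leaving out 1 library gave 1 to 2 calls there, 0 to 1 in tumor against spleen M-MDSC and in bulk tumor against tumor M-MDSC (the 1 without tumor M-MDSC library 2), and the main count elsewhere. Other scalings (TMM, or protein-coding totals without globin) moved every group mean of summed globin by less than 1 SD. Leaving out 1 of 3 or 4 libraries cannot move a mean by that much, so the SD is no measure of its effect. The mean changed by over 1.5 times without poly(I:C)c spleen PMN-MDSC library 1 (0.366 CPM), untreated tumor PMN-MDSC library 2 (3.1 CPM), untreated tumor M-MDSC library 2 (1.195 CPM) or bulk tumor library 2 (15.5 CPM). No paired analysis was possible because the deposited columns carry no mouse number. Depth limits Klf1, Car1 and all globin values in treated and tumor-derived sorted cells.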
